A study of Mus musculus with 12 samples.

Results

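Hearts of mouse embryos that inherited a Ddc_exon1a deletion from the mother (Ddc MATΔ, labelled MatKO) were set against hearts of wild-type embryos (Ddc WT), with the 4 Ddc MATΔ and 3 Ddc WT hearts taken from the genotype label of the 12 hearts in the series. All embryos were at E15.5, and each heart was hybridized to 1 Illumina WG-6 mouse bead array. The remaining hearts, 4 with the deletion from the father (Ddc PATΔ) and 1 with it on both alleles (Ddc ΔΔ), entered the fit of the spread and served as a reference for Ddc alone. The allele is a neomycin gene trap made by Lexicon Genetics, so a single insertion on a mixed strain background stands for the deletion, and it is present in the whole embryo. The mother of a Ddc MATΔ embryo carried the deletion herself. Whether mothers of the Ddc WT embryos also carried it is not known here. If they did not, effects of the mother's genotype cannot be told apart from those of the embryo's own allele. The sources used here do not say which embryos shared a litter or a slide, and the p-values measure the spread between these hearts.

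Ddc encodes aromatic L-amino acid decarboxylase, the enzyme that turns L-DOPA into dopamine and 5-hydroxytryptophan into serotonin. Imprinted genes are read mainly from 1 parental allele. In the developing mouse heart Ddc is read from an alternative first exon, exon 1a, on the paternal chromosome, and the maternal copy is mostly silent there. The neighbouring Grb10, which encodes an adaptor that binds growth factor receptors, is read from the maternal chromosome in most tissues and shares its imprinting control region with Ddc_exon1a. Ddc MATΔ hearts therefore carry the insertion on the copy that the heart uses least, and the comparison with Ddc WT asks what an inherited deletion does when the active allele is intact.

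The sequences before the pair of Ddc starts annotated by RefSeq are given here, since the comparison turns on which of them the heart uses. Both lie on the minus strand of chromosome 11 (GRCm38.p6), 7736 bases apart, and each run holds the 250 bases that precede the start, 5′ to 3′, with CpG dinucleotides, the sites of DNA methylation, in capitals. The downstream start is that of exon 1a, because the bases transcribed after it hold the exon 1a primer described in the study's methods.
Ddc upstream start, chr11:11898145-11898394: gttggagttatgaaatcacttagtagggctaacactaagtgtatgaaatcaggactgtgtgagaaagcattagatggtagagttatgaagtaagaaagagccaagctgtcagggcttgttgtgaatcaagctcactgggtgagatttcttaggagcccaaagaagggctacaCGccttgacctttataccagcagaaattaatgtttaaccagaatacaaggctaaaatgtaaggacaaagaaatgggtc
Ddc exon 1a start, chr11:11890409-11890658: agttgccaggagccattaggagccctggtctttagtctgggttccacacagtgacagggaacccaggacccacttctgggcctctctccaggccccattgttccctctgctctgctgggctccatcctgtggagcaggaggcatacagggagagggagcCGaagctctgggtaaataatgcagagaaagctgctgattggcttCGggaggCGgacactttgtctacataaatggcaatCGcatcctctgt
The exon 1a run held 4 CpGs and the upstream run held 1, and over 32851 RefSeq promoter runs of this length the median was 6. Runs with as few CpGs as exon 1a made up 44.4% of them and runs with as few as the upstream start 18.8%. The place of the array probes relative to exon 1a or to the insertion was not known here.

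The values were the deposited log2 signals of 45267 probes, from 4.58 to 15.59, with array medians from 5.61 to 5.62. Probes with a mean under 7 over the 12 arrays are called dim here, and 16120 probes were brighter. Pearson correlations over all probes were 0.983 to 0.989 between Ddc WT hearts and 0.988 to 0.992 between Ddc MATΔ hearts. Between hearts of the 2 genotypes they were 0.986 to 0.990. The medians were 0.983, 0.989 and 0.988 in that order. Low values between Ddc WT hearts were those of replicate 1, at 0.983 with replicates 2 and 3, which correlated at 0.989 with each other. The main axis of variation held 34.3% of the variance among the brighter probes and cut across the genotypes, with Ddc WT replicate 1 at -28.8 and Ddc MATΔ replicates 3 and 4 at -23.0 and -19.6, against 9.77 to 26.4 in the other 4 hearts. Ddc WT replicate 1 also had the lowest array weight, 0.63. Heart muscle genes were high in all 7 hearts, with Actc1 (cardiac actin, ILMN_2598916) between 14.85 and 15.21 and Nppa (atrial natriuretic peptide) between 15.28 and 15.47. Tnnt2 was not among the named probes.

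2 of the 4 Ddc MATΔ hearts differed from the rest by genes of another tissue or sex. Xist, the RNA that coats the inactive X chromosome, was at 12.72 to 13.48 in 6 of the 7 hearts and at 5.90 in Ddc MATΔ replicate 3 (ILMN_1224091). The Y-linked Eif2s3y was at 12.29 in that heart and at 4.82 to 6.49 in the others (ILMN_1241001), and Kdm5d was at 9.76 there and at 4.84 to 5.37 elsewhere, so this was the one male heart of the 7 by these genes. Afp, alpha-fetoprotein of fetal liver, was at 10.77 and 10.51 in Ddc MATΔ replicates 3 and 4 and between 4.90 and 6.23 in the other 5. Of 28 measured genes of liver secreted proteins, 16 and 13 exceeded 7 in these 2 hearts and 3 or 4 did so in each other heart, and 21 were highest in Ddc MATΔ replicate 3. Ttr, a gene of this list, was also high in Ddc MATΔ replicate 2, at 10.30. It was at 7.22 in Ddc MATΔ replicate 1 and at 7.69 to 7.94 in Ddc WT. Alb lay between 4.78 and 4.93 in all 7. The part of sex and of the liver signal in the differences below was not tested, apart from the values given without these hearts. In bulk tissue, more cells of a type and more RNA per cell cannot be told apart.

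Ddc stayed high in Ddc MATΔ hearts, and was lower by an amount within the spread that the test measured. Its brightest probe, ILMN_1260450, read 14.12, 13.66 and 13.82 in the Ddc WT hearts and 13.49, 13.42, 13.99 and 13.92 in the Ddc MATΔ hearts. The 2 groups overlapped, and the difference was -0.16 ± 0.16 (SE) on the log2 scale, 89.3% of the wild-type signal with a 95% interval of 69.9% to 114%. It was -0.04 when Ddc WT replicate 1 was left out and -0.27 when replicate 2 was. Probe ILMN_2628647 read 13.20, 13.39 and 13.49 in Ddc WT and 12.97, 13.18, 13.14 and 13.13 in Ddc MATΔ. Here all 4 Ddc MATΔ hearts lay below all 3 Ddc WT hearts. The difference was -0.26 ± 0.16, or 83.7% of wild type (65.0% to 108%), and 2.42% of all probes were lower without overlap. Probe ILMN_1229396 was the most variable, at 11.66, 11.25 and 12.58 in Ddc WT against 11.23, 10.45, 11.58 and 11.44 in Ddc MATΔ. Its difference was -0.65 ± 0.32, or 63.7% of wild type (38.9% to 104%), and without Ddc WT replicate 3 it was -0.27. In limma the adjusted p was 0.999 for each of the 3 probes, with unadjusted p of 0.328, 0.148 and 0.0690 in the order given. Exact permutation tests over the 35 splits of 7 hearts, two-sided, gave p of 0.429, 0.0286 and 0.200, where 0.0286 is the smallest that 4 against 3 allows. All 3 probes were lower, but they report on 1 gene in the same hearts and are not independent.

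The same probes in Ddc PATΔ hearts give a scale for these differences. In the 4 Ddc PATΔ hearts ILMN_1260450 lay between 10.22 and 10.44, against 13.42 for the lowest Ddc MATΔ heart. Directly compared, Ddc PATΔ hearts held 9.88%, 7.70% and 3.09% of the Ddc MATΔ signal at ILMN_1260450, ILMN_2628647 and ILMN_1229396. The adjusted limma p values were 3.98e-06, 3.68e-06 and 5.97e-05. The deletion thus went with a loss of most of the Ddc signal when it came from the father. The Ddc MATΔ point estimates of 63.7% to 89.3% of wild type move with single Ddc WT hearts, as given above.

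**Figure D1:**
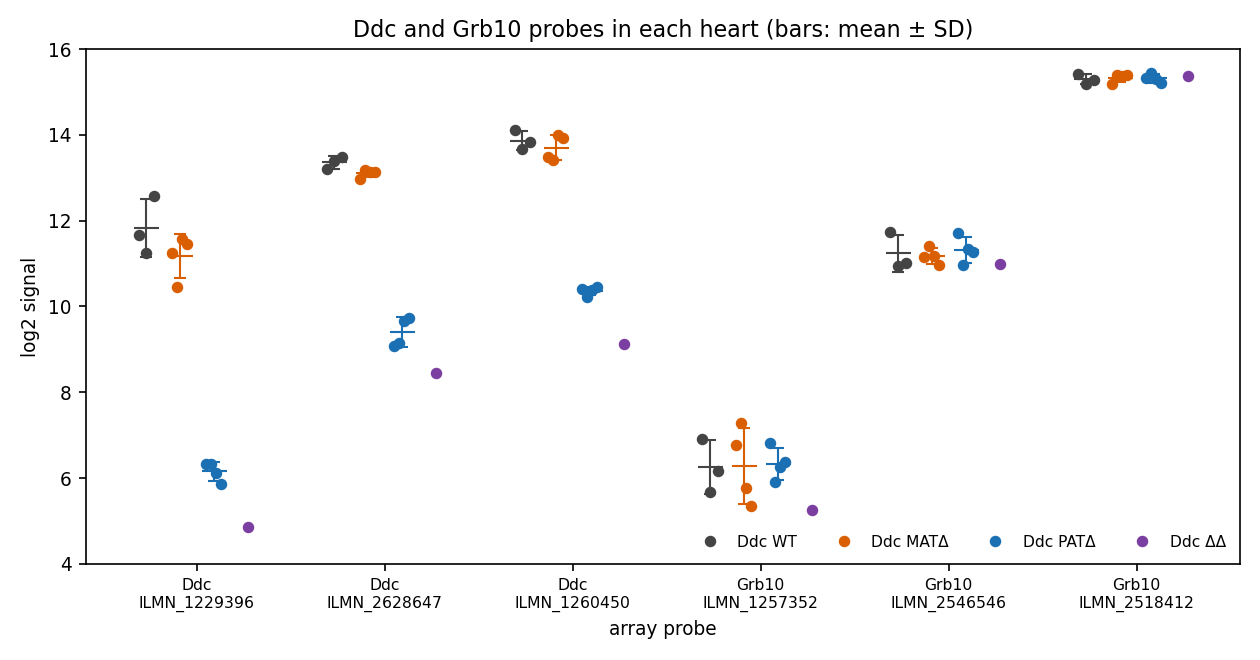
Log2 signal (y axis) of the 3 Ddc and 3 Grb10 probes (x axis) in each of the 12 hearts, with 1 point per heart, colours for genotype and bars for mean ± SD. For Ddc the Ddc MATΔ points lie beside the Ddc WT points and far above the Ddc PATΔ points (highest 10.44 at ILMN_1260450), and the Grb10 points of Ddc WT, Ddc MATΔ and Ddc PATΔ overlap.

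Grb10 did not differ detectably between Ddc MATΔ and Ddc WT. Its brightest probe, ILMN_2518412, read 15.42, 15.20 and 15.28 in Ddc WT and 15.18, 15.40, 15.36 and 15.39 in Ddc MATΔ, near the top of the array's range. The difference was 0.04 ± 0.10 (95% interval -0.18 to 0.25). At ILMN_2546546 it was -0.06 ± 0.21 and at the dim ILMN_1257352 it was 0.03 ± 0.44, with an adjusted limma p of 0.999 for all 3. Genes close to Ddc are inherited together with the insertion, so they were taken by distance from its upstream start. Of 7 measured genes within 1 Mb, 5 were lower and 2 higher, with a median of -0.25. Only Grb10 and Fignl1, an AAA ATPase of DNA repair, were bright, and Fignl1 differed by 0.01 ± 0.13. The others included Ikzf1, a lymphoid transcription factor, at -0.36 ± 0.29, and Zpbp, a sperm protein, at -0.42 ± 0.24. None of these 7, nor of the 12 genes at 1 to 5 Mb (median -0.01), passed an unadjusted limma p of 0.05. At 5 to 20 Mb 5.48% of 146 genes did, beyond 20 Mb on the chromosome 5.84% of 1319, and on other chromosomes or unplaced 5.42% of 17572. These shares were alike at all 3 distances. Wdr92, named further on, lies at 5 to 20 Mb.

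Across the array no probe passed an adjusted p of 0.05 between Ddc MATΔ and Ddc WT (0% of 45267, limma), and the smallest adjusted p was 0.813. At an unadjusted p of 0.05, 2211 probes passed, 4.88%, with 1093 higher and 1118 lower. A looser criterion, an unadjusted p under 0.01 with a log2 difference over 0.4, was met by 157 higher probes (0.347%) and 161 lower probes (0.356%), of which 64.5% were dim. Over 19056 genes, each by its brightest probe, 9901 were higher and 9155 lower, with a median difference of 0.01. The smallest p belonged to Olfml3, an olfactomedin-domain matrix protein. It read 10.65, 10.52 and 10.40 in Ddc WT and 11.10, 10.96, 11.04 and 11.15 in Ddc MATΔ, a difference of 0.54 ± 0.09 with an unadjusted p of 7.64e-05. The absence of calls depended on which hearts were used. Without Ddc MATΔ replicate 3, 4 probes passed the adjusted threshold, without Ddc WT replicate 3 the Plk1 probe did, and without Ddc WT replicate 1 an unnamed probe did. The 4 probes were 2 of Capn2 (calpain 2) and 1 each of Tob2 and Fcer1g. At Fcer1g, an Fc receptor subunit of myeloid cells, the Ddc WT hearts read 8.80, 9.21 and 9.37 and the Ddc MATΔ hearts 4.87, 4.80, 9.70 and 4.89, so Ddc MATΔ replicate 3 sat with the wild-type hearts.

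**Figure D2:**
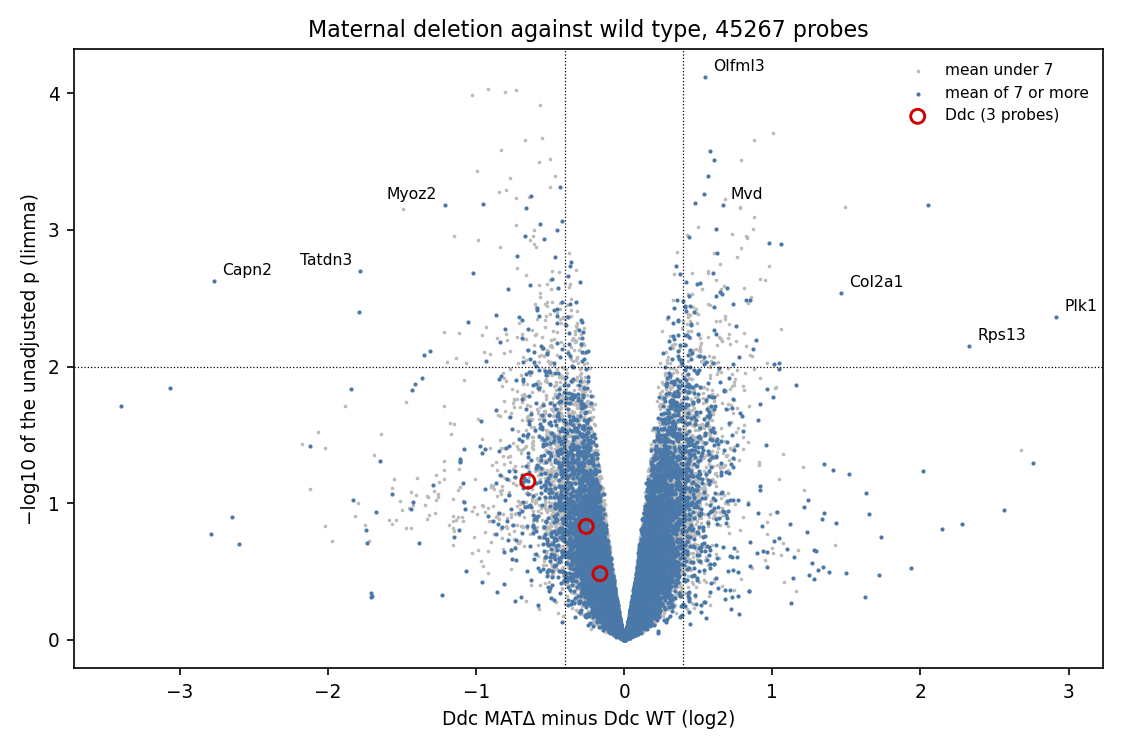
Difference in log2 signal between Ddc MATΔ and Ddc WT hearts (x axis) against -log10 of the unadjusted limma p (y axis) for 45267 probes, in grey for dim and blue for brighter probes, with dotted lines at differences of 0.4 and a p of 0.01. The 3 Ddc probes, circled in red, lie below the p line, and the farthest labelled probes (Plk1 at 2.92, Capn2 at -2.77, Rps13 at 2.33) are not those of smallest p.

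The genes that follow had the 12 largest differences in each direction among the 45 higher and 41 lower named bright probes that met the looser criterion without overlap. They were chosen by this contrast, so their values are descriptions, and none passed the adjusted test. The criterion was met in all 7 fits that left out 1 heart by Rspo3, Mvd, Myoz2, Neat1 and Zc3h6, and in 1 of them by Sc5d, Ctnna2 and Ddo. The highest was Col2a1, the fibrillar collagen of cartilage that valve cushions also make. ILMN_1246054 read 7.76, 7.35 and 6.13 in Ddc WT and 8.77, 8.67, 8.31 and 8.43 in Ddc MATΔ, a difference of 1.46 ± 0.38. Its other probes were also higher, by 1.06 and 1.04, and at ILMN_2759142 the groups were again apart, with 6.62 to 7.25 against 7.54 to 8.47. Rspo3, a secreted R-spondin that strengthens Wnt signalling, read 7.93, 7.01 and 7.30 in Ddc WT and 8.59, 8.55, 8.42 and 8.0 in Ddc MATΔ. The difference was 0.97 ± 0.23, and its brighter second probe differed by 0.30 with overlap. Wnt5a, a ligand of non-canonical Wnt signalling in the outflow tract, read 10.23, 9.80 and 10.06 in Ddc WT and 10.92, 10.61, 10.56 and 10.80 in Ddc MATΔ, 0.69 ± 0.18 apart. Both of its other probes were higher with overlap, by 0.55 (a dim probe) and 0.50. Pdgfc, a platelet-derived growth factor, was higher by 0.65 ± 0.17, and its dim other probes differed by 0.28 and -0.08 with overlap.

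A pair of sterol synthesis enzymes was among the higher genes. Mvd, mevalonate diphosphate decarboxylase, read 8.27, 7.68 and 8.31 in Ddc WT and 8.72, 8.79, 8.72 and 8.77 in Ddc MATΔ, higher by 0.66 ± 0.14. The 4 Ddc MATΔ hearts lay closer to each other than the 3 Ddc WT hearts did. Sc5d, a sterol desaturase, was higher by 0.77 ± 0.24, with Ddc WT replicate 2 lowest at 6.65 and Ddc WT replicate 1 at 7.93 just under the lowest Ddc MATΔ heart at 7.98. The difference was 0.41 without Ddc WT replicate 2. Lig1, the DNA ligase of replication, differed by 0.66 ± 0.17 at ILMN_2657356 and was higher at its 3 other probes by 0.18 to 0.27, with overlap. Rbm12, an RNA-binding protein, differed by 0.74 ± 0.20 and was higher at its 3 other probes by 0.17 to 0.41, with overlap. Ccp110, a centriole cap protein, was higher by 0.89 ± 0.27 at 1 probe, but a brighter probe differed by 0.02. The rest were Casq1, a calsequestrin best known from skeletal muscle (0.87 ± 0.27), the adhesion protein Ntm (0.76 ± 0.22) and the alpha catenin Ctnna2 (0.74 ± 0.23). The Ntm difference was 0.47 without Ddc WT replicate 3. Dim other probes differed by -0.06 for Ntm and by -0.10, 0.02 and -0.01 for Ctnna2, with overlap.

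Of the 12 genes that were lower in Ddc MATΔ hearts, Myoz2, a Z-disc protein that binds calcineurin, read 9.19, 9.19 and 9.20 in Ddc WT and 8.13, 8.28, 7.90 and 7.63 in Ddc MATΔ at ILMN_1257860, a difference of -1.21 ± 0.26. Its much brighter probe ILMN_1234857 went the other way, by 0.34 ± 0.20 with overlap, so the gene as a whole has no settled direction. Txlnb, a taxilin of muscle, was lower by 0.87 ± 0.24 on the log2 scale at 1 probe, and its brighter probe differed by -0.26. Ankrd23, a muscle ankyrin repeat protein, read 8.65, 9.20 and 9.50 against 8.48, 8.20, 8.20 and 8.36, a difference of -0.81 ± 0.23.

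Neat1, the RNA scaffold of nuclear paraspeckles, read 9.80, 10.49 and 10.45 in Ddc WT and 9.58, 9.21, 8.91 and 9.46 in Ddc MATΔ, a difference of -0.95 ± 0.20. Nfe2l2, a transcription factor of the oxidative stress response, differed by -1.02 ± 0.25, with Ddc MATΔ replicate 4 at 8.63 close to the lowest Ddc WT heart at 8.75. Its dim other probe went the other way, by 0.17 with overlap. Ddo, D-aspartate oxidase, was the one gene of this group with 4 probes, and all 4 were lower, by -0.69, -0.53, -1.11 and -0.83. In each of them Ddc MATΔ replicate 3 was the highest of the 4 Ddc MATΔ hearts. Tatdn3, a TatD DNase family gene, had the largest difference of these 12 genes, -1.78 ± 0.44. It read 5.41, 5.32 and 5.77 in 3 Ddc MATΔ hearts and 7.25 in Ddc MATΔ replicate 3, next to 7.28 in Ddc WT replicate 2. At Fcer1g and at ILMN_1219583 of Capn2 the same 3 Ddc MATΔ hearts were low and replicate 3 was near the Ddc WT hearts. The remaining genes were Gm26588, a predicted gene (-1.05 ± 0.30), the meiotic cohesin Stag3 (-0.93 ± 0.30), the growth factor Egf (-0.84 ± 0.25), Zc3h6, a zinc finger gene (-0.72 ± 0.17), and Wdr92, a WD repeat gene (-0.69 ± 0.19, with its other bright probe at 0.03). Without Ddc WT replicate 1, which read 9.07 against 7.79 and 7.52 in the other Ddc WT hearts, the Stag3 difference was -0.46. That of Txlnb was -0.58 without Ddc WT replicate 2. Dim other probes differed by -0.12 and 0.09 for Zc3h6, by -0.21 for Egf and by -0.22 for Txlnb.

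**Figure D3:**
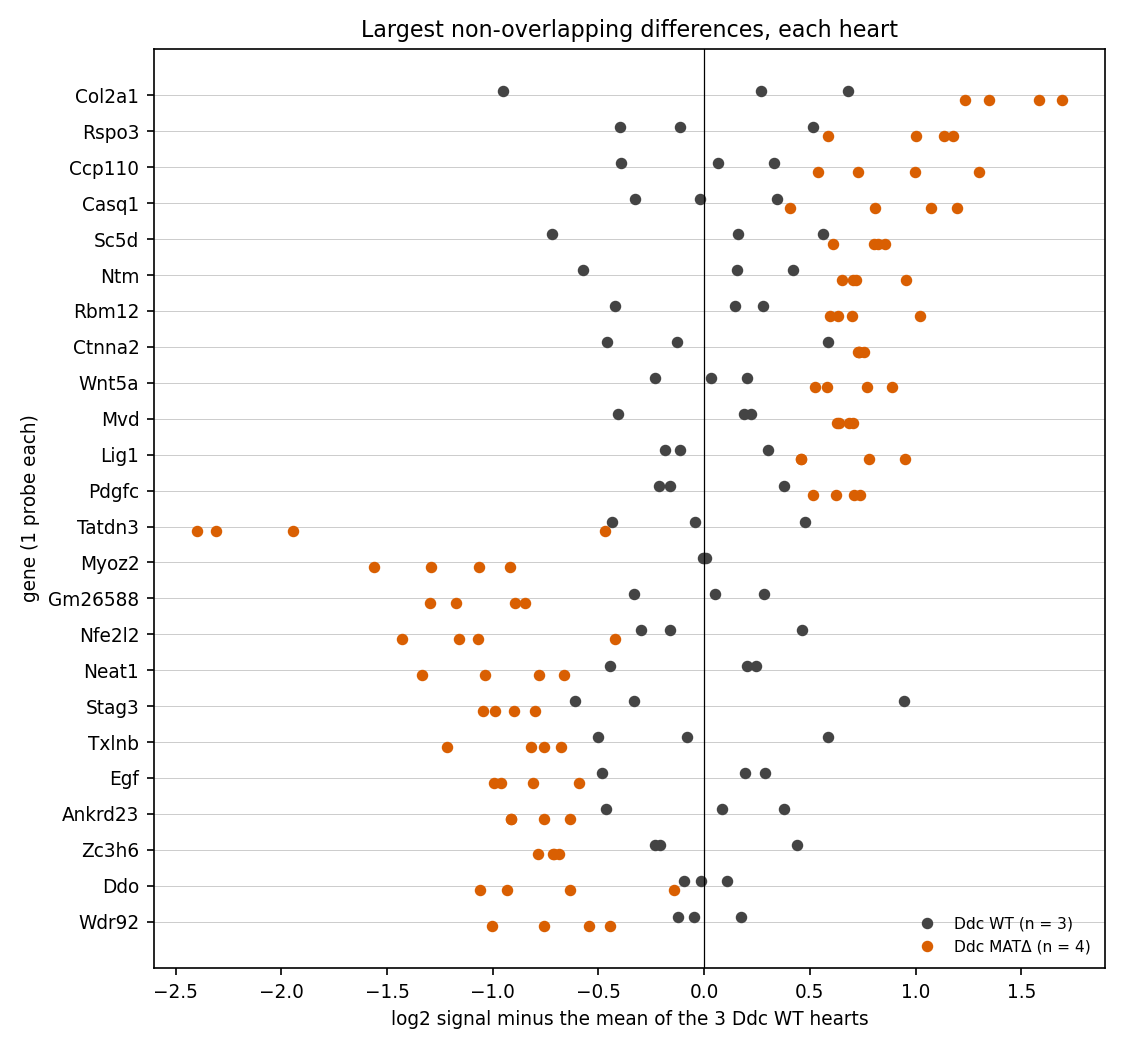
Log2 signal in each heart minus the mean of the 3 Ddc WT hearts (x axis) for the 12 largest higher and 12 largest lower differences (y axis, 1 probe per gene), with dark points for Ddc WT and orange for Ddc MATΔ. The groups do not overlap because that was a condition of choice, and for Tatdn3 and Ddo 1 Ddc MATΔ heart lies close to the wild-type points.

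Gene lists, with each gene read at its brightest probe, were set against all 19056 genes, of which 2.87% were higher and 2.57% lower at an unadjusted limma p of 0.05, and 2.97% were higher and 2.38% lower without overlap between the groups. In what follows a gene passed when its unadjusted p was under 0.05, and none had an adjusted p under 0.05. Enzymes and transporters of the monoamine pathway, in which Ddc acts, did not pass in either direction (0 of 18 measured genes, median 0.02). Only 7 were bright. Spr, Pts and Qdpr, which make or recycle the tetrahydrobiopterin cofactor, differed by -0.18 ± 0.11, 0.14 ± 0.10 and -0.13 ± 0.11. Th and Tph1, the enzymes that make the substrates of Ddc, were dim and differed by -0.03 and 0.07. None of the 18 monoamine receptors was bright, and 1 passed in the lower direction (Drd3, a dopamine receptor, -0.24). Of 41 other imprinted genes, 2 were higher at p under 0.05, the dim Nnat (0.71 ± 0.30) and Phlda2 (0.31 ± 0.11), and none lower. The growth genes Igf2, at 0.00, and Cdkn1c, at 0.21 ± 0.16, did not pass.

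Few genes of cardiac muscle passed. Of 26 sarcomere and Z-disc genes 12 were higher and 14 lower, with a median of 0.00, and 2 passed in the lower direction, Mypn and the dim Xirp2. Mypn, myopalladin of the Z-disc, read 8.86, 8.73 and 9.04 in Ddc WT and 8.10, 7.97, 8.47 and 8.71 in Ddc MATΔ (-0.56 ± 0.17). Myh6, the alpha myosin heavy chain, differed by -0.27 ± 0.17. Among 24 genes of calcium handling and ion channels only Ryr2, the calcium release channel, passed, at -0.25 ± 0.10 and with overlap. None of 26 cardiac transcription factors passed (median 0.02). Hopx, a homeodomain protein that limits cardiomyocyte growth, was lower in all 4 Ddc MATΔ hearts, at 14.63 to 14.70 against 14.77 to 14.90, a difference of -0.18 ± 0.09. Of 14 natriuretic peptide and trabecular genes 12 were higher and none passed, and Nppb, the brain natriuretic peptide, differed by -0.51 ± 0.25. The list median was 0.10, but -0.01 without Ddc WT replicate 3 and 0.34 without replicate 1. By list mean, Ddc WT replicate 1 at 0.24 lay above all Ddc MATΔ hearts, the highest of which was at 0.07.

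Of 28 genes of signals that govern growth of the compact wall, the outer muscle layer of the ventricle, 1 passed, Vegfa, the main vascular growth factor. It read 13.33, 13.88 and 13.61 in Ddc WT and 13.18, 13.26, 12.97 and 13.27 in Ddc MATΔ, a difference of -0.43 ± 0.14. A second bright probe of Vegfa differed by -0.58 ± 0.24. Of 17 second heart field and outflow genes, Wnt5a passed as higher and the dim Eya1 as lower (-0.26). Of 32 genes of R-spondin and Wnt signalling 4 passed in the higher direction and none in the lower, and the list median was 0.08 (0.19 when Ddc WT replicate 2 was left out and 0.04 when replicate 1 was). Beside Wnt5a these were Nkd1, a Wnt feedback inhibitor (0.43 ± 0.13), Sfrp1, a secreted Wnt antagonist (0.42 ± 0.14, with 11.11 to 11.72 in Ddc WT against 11.76 to 12.01), and the dim Rspo4. The list holds ligands and inhibitors alike. Rspo3 is not among the 4 because its brighter probe stood for it.

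Genes of cell division and DNA replication held more higher genes that passed than any other list, 9 of 42 with 1 lower gene, and the median was 0.08. Beside Plk1, described below, and Mybl2 (0.56 ± 0.21) they were genes of entry into S phase and of origin licensing. Ccne1, cyclin E1, read 8.95, 8.80 and 9.24 in Ddc WT and 9.47, 9.78, 9.31 and 9.41 in Ddc MATΔ, a difference of 0.49 ± 0.14. Cdc6, which loads the replicative helicase, differed by 0.38 ± 0.12, Cdk4 by 0.32 ± 0.11 and E2f1 by 0.33 ± 0.12, each without overlap. The helicase subunits Mcm4, Mcm2 and Mcm3 differed by 0.27, 0.34 and 0.43, the last 2 with overlap. The lower gene that passed was Ttk, a spindle checkpoint kinase, at -0.39 ± 0.17, and Ccna2 at -0.40 and Cdc20 at -0.21 did not pass. Averaged over the list and set against the mean of the 7 hearts, Ddc WT replicate 2 was lowest at -0.21 and Ddc WT replicate 1 at 0.01 lay above Ddc MATΔ replicate 3 at -0.01. The list median was 0.02 when Ddc WT replicate 2 was left out and 0.13 when replicate 1 was. Of 20 genes of apoptosis and the p53 response 2 passed in the lower direction, the dim Aen and Cdkn1a, the p21 cell cycle inhibitor, at -0.33 ± 0.13.

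Genes of fatty acid uptake and oxidation held more lower genes that passed than any other list, 6 of 26 with no higher one, and 23 of the 26 were lower (median -0.19). Ppargc1a, a coactivator of mitochondrial genes, read 11.88, 12.07 and 12.06 in Ddc WT and 11.42, 11.66, 11.12 and 11.13 in Ddc MATΔ, a difference of -0.67 ± 0.15. Hadha, the alpha subunit of the mitochondrial trifunctional protein, read 9.66, 9.49 and 9.40 against 8.72, 9.09, 8.97 and 8.65 (-0.66 ± 0.14), and its partner Hadhb differed by -0.26. Slc27a1, a fatty acid transporter, differed by -0.57 ± 0.19, Pdk4, which closes pyruvate dehydrogenase, by -0.56 ± 0.22, and the fatty acid receptor Cd36, a dim probe, by -0.92 ± 0.15. The list as a whole did not separate the genotypes. Its mean was 0.32 and 0.25 in Ddc WT replicates 2 and 3, but -0.10 in Ddc WT replicate 1, inside the Ddc MATΔ range of -0.17 to -0.07. Without Ddc WT replicate 1 the median was -0.33. Of 30 citric acid cycle and respiratory chain genes 24 were lower and 1 passed, Pdhb (-0.65 ± 0.29). Of 21 genes of glucose uptake and glycolysis 9 were higher and 12 lower, with a median of -0.01. There 2 passed in the lower direction, Ldhb (-0.45 ± 0.13) and Pfkp (-0.28 ± 0.12), both without overlap. Pkm was higher without overlap but did not pass (0.14 ± 0.09).

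Genes that respond to glucocorticoids were lower in 15 of 17 cases (median -0.28), and 4 passed in the lower direction. They were the metallothionein Mt1 (-0.33 ± 0.13), Cdkn1a, Klf9 (-0.49 ± 0.20) and Errfi1 (-0.28 ± 0.13), and in none of them were the groups apart. The median was -0.17 when Ddc WT replicate 2 was left out and -0.39 when replicate 1 was. Ddc WT replicate 1 was on the Ddc MATΔ side, with a list mean of -0.14 against 0.38 and 0.19 in the other Ddc WT hearts and -0.18 to 0.00 in the Ddc MATΔ hearts. Of 16 circadian clock genes 2 passed in the lower direction, Nr1d2 (-0.32 ± 0.14) and Dbp (-0.27 ± 0.12). Of 27 immediate early and heat shock genes 2 passed as higher, Egr3 (0.42 ± 0.17) and Egr2 (0.34 ± 0.15), and Klf4 as lower (-0.46 ± 0.17).

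**Figure D4:**
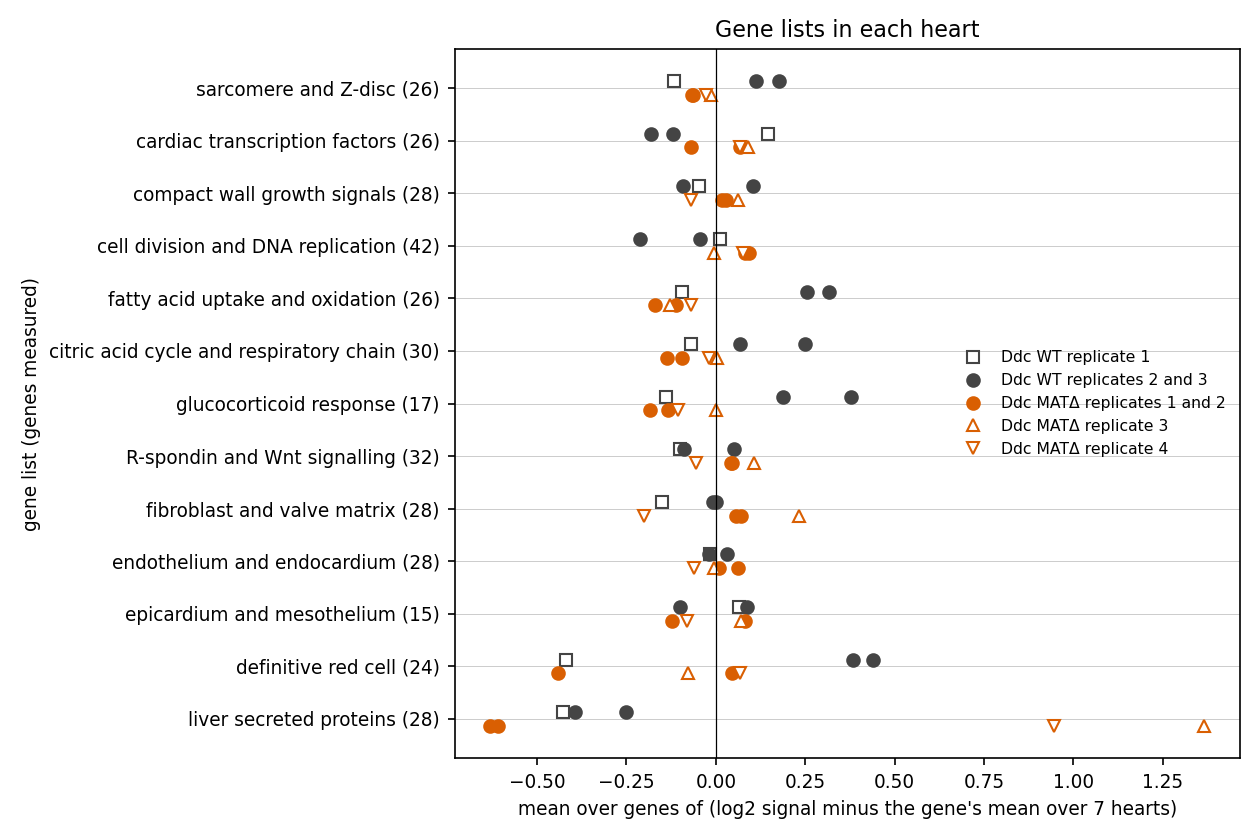
Mean over the genes of a list of the log2 signal minus each gene's mean over the 7 hearts (x axis) for 13 lists (y axis, with the number of genes measured), 1 symbol per heart, dark for Ddc WT and orange for Ddc MATΔ, with open symbols for Ddc WT replicate 1 and Ddc MATΔ replicates 3 and 4. For fatty acid genes Ddc WT replicate 1 (-0.10) lies among the Ddc MATΔ hearts. The mean of the liver list stands out in Ddc MATΔ replicates 3 (1.37) and 4 (0.95) only.

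Markers of the other cells of the heart gave few differences. Of 28 fibroblast and valve matrix genes 20 were higher and 1 passed, Twist1, a transcription factor of valve mesenchyme, at 8.63 to 8.70 in Ddc WT and 8.76 to 9.25 in Ddc MATΔ (0.32 ± 0.13). Of 17 cartilage-type genes 10 were higher and 7 lower, with a median of 0.02. Col2a1 and the dim Snorc (0.18) passed as higher and the dim Col11a2 as lower (-0.91), and the lowest difference was that of the dim Col9a3 (-0.99). Of 28 endothelial and endocardial genes Aplnr, the apelin receptor, passed as higher (0.74 ± 0.32) and Nostrin as lower (-0.57 ± 0.22), both with overlap. Of 15 epicardial genes the dim Bnc2 passed in the lower direction, and Msln, mesothelin, was lower without overlap but did not pass (-0.54 ± 0.26). Of 16 smooth muscle and pericyte genes 1 passed (Mcam, 0.26 ± 0.12). Of 19 macrophage genes 13 were higher and 6 lower, with a median of 0.04. Lyve1, a hyaluronan receptor, was lower (-0.73 ± 0.24). Its value of 9.80 in Ddc WT replicate 1 lay among those of the Ddc MATΔ hearts at 9.66 to 9.83.

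Markers of blood and neighbouring tissues varied between hearts of the same genotype. None of 24 definitive red cell genes and none of 3 embryonic globin genes passed. Hbb-y, an embryonic beta-type globin, was at 12.69 in Ddc WT replicate 3 and between 14.10 and 15.08 in the other 6 hearts (ILMN_3141257). Red cell genes averaged -0.42 in Ddc WT replicate 1 and -0.44 in Ddc MATΔ replicate 2 against 0.38 and 0.44 in the other Ddc WT hearts. None of 21 neutrophil granule, 24 neural and neural crest or 14 lung and airway genes passed, and 1 of 15 thymus and lymphoid genes did. The liver list had a median of 0.62 (0.24 without Ddc MATΔ replicate 3), and without Ddc MATΔ replicates 3 and 4, left out after seeing the data, it was -0.16. Only the dim Fgb of that list passed, in the lower direction. The fatty acid median without these 2 hearts was -0.24 and the glucocorticoid median -0.30, so both were as low as with them, and the cell division median was 0.06.

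Some probes differed widely between hearts of the same genotype. Among the 16120 brighter probes, 105 spanned more than 3 log2 units within one of the 2 groups, 69 of them among the 3 Ddc WT hearts and 47 among the 4 Ddc MATΔ hearts. Of these 47, 20 belonged to the liver and sex-linked lists described above, and of the 69, 1 did. Only 1 of the 105 separated the groups. That probe, ILMN_3161626 of Prkag2, read 11.27, 11.02 and 11.14 in Ddc WT and 6.58, 10.91, 6.60 and 6.91 in Ddc MATΔ. Its difference of -3.40 had an unadjusted limma p of 0.0195, above the 0.01 of the looser criterion. A probe of Mcm6, a helicase subunit, read 12.90, 6.60 and 12.61 in Ddc WT and 12.07, 6.53, 12.97 and 12.13 in Ddc MATΔ, so 1 heart of each genotype was at the level of dim probes. A second, equally bright Mcm6 probe stayed between 12.19 and 12.96 in all 7. Rps13, a ribosomal protein, read 5.72, 5.65 and 9.03 in Ddc WT and 8.26 to 9.53 in Ddc MATΔ at ILMN_2482591, while its brighter probe lay between 14.43 and 14.73. Plk1, a mitotic kinase with 1 probe, read 7.76, 7.60 and 11.68 in Ddc WT and 12.60, 12.28, 11.78 and 11.07 in Ddc MATΔ, so its difference of 2.92 ± 0.81 rested on the low values of 2 Ddc WT hearts. Capn2 was at 10.03 to 11.00 in Ddc WT and at 7.07, 6.82, 10.28 and 7.36 in Ddc MATΔ at ILMN_1219583. A second probe, ILMN_2683586, had the same pattern, with 11.26, 10.46 and 11.01 in Ddc WT and 8.43, 8.35, 10.76 and 8.93 in Ddc MATΔ. The brightest Capn2 probe read 11.61, 11.25 and 11.35 in Ddc WT and 10.91, 11.08, 11.40 and 11.15 in Ddc MATΔ. Ddc MATΔ replicates 1, 2 and 4 were again lowest there, but the 7 hearts spanned only 0.70. Of 27 genes with such a probe and another bright one, 23 had less than 1 log2 unit of range at the brightest other probe. The part of the mixed strain background in these probes, and in the Tatdn3 probe above, was not tested.

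**Figure D5:**
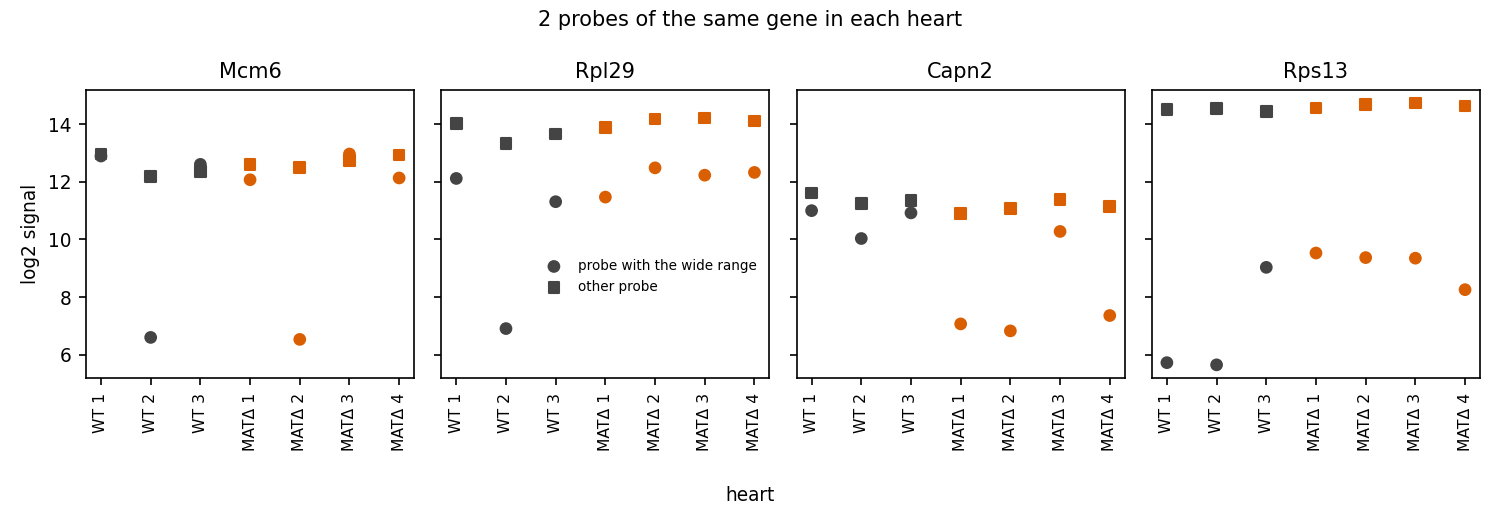
Log2 signal (y axis) in each of the 7 hearts (x axis) for Mcm6, Rpl29, Capn2 and Rps13, dark for Ddc WT and orange for Ddc MATΔ, with circles for the wide-range probe and squares for the brightest other probe of the same gene. The Mcm6 circles are low in 1 heart of each genotype (6.60 and 6.53), those of Rpl29 in Ddc WT replicate 2 (6.91), those of Capn2 in 3 Ddc MATΔ hearts and those of Rps13 in 2 Ddc WT hearts, and the squares of each gene span less than 1 unit.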

How the data were processed

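RNA from whole E15.5 hearts was hybridized to Illumina bead arrays, and the authors corrected background and normalized with neqc in limma after GenomeStudio, versions not given in the sources used here. These deposited log2 values of 45267 probes were used unchanged. 24 further columns of scanner signals and detection p-values could not be tied to hearts and were not used. Groups followed the genotype labels. Probes were named where the platform table gave 1 symbol (34875, against 18 with several and 10374 not listed). A 4-level genotype factor was fitted to the 12 arrays with limma 3.58.1 (R 4.3.3), with a two-sided Benjamini-Hochberg adjusted p of 0.05 over all probes, and the steps were tested on simulated data. The number of arrays limits the precision.

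Named genes were Ddc and Grb10, every gene with an adjusted p under 0.05, the 12 largest non-overlapping differences each way among named probes with a mean of 7 or more, an unadjusted p under 0.01 and a difference over 0.4, up to 4 bright genes of smallest p per list, sex-linked genes, and Afp, Alb, Hbb-y and Hba-x. Others, such as Olfml3, Hopx, dim list members and the wide-range probes, were chosen after their values were seen. The members and lists were chosen with earlier results of these data known. Alternatives were a replicate block, the 7 arrays alone, trended robust variance, array weights, no dim probes, an offset of 100, Xist as a covariate, recentring, other probe rules for lists and leaving out hearts.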

Additional observations from a re-analysis of the deposited data

Results flagged for a closer look

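Of 162 probes examined among the 4 Ddc MATΔ hearts, 15 (9.26%) had 1 heart set apart from the other 3 beyond Dixon's 95% limit. Chance gives this in about 1 of 20. The 15 include the Xist, Kdm5d, Eif2s3y and Uty probes, which all report the sex of 1 heart and are not separate cases. For the others, chance alone may give such a number. Ddc MATΔ replicate 3 stood apart at Xist (5.90, 5.99, 5.36 and 5.50 at its 4 probes, against 10.88 or more), Kdm5d (9.76), Eif2s3y (12.29) and Uty (7.43). The same heart had the highest Mt1, a metallothionein, at 15.17 against 14.82 to 14.85, and the lowest Kcnj8, a potassium channel, at 9.0 against 9.31 to 9.36, and Tspo2, a red cell gene, at 5.50 against 6.49 to 6.59. Ddc MATΔ replicate 1 was lowest at Tbx18, a transcription factor of the epicardium, at 8.45 against 9.41 to 9.50. Ddc MATΔ replicate 2 was lowest at Bcl2 (9.45) and Nr1d2 (9.72) and highest at Stmn2 (7.66). Ddc MATΔ replicate 4 was lowest at Sox9, a transcription factor of cartilage and valves, at 12.08 against 12.58 to 12.60.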

How the results depend on the processing

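No probe passed the adjusted threshold in the 8 alternatives that kept all 7 hearts, and leaving out 1 heart gave 0 to 4 probes (4 when Ddc MATΔ replicate 3 was absent, and 1 each when replicate 1 or 3 of Ddc WT was). The looser criterion was met by 318 probes in the reported fit, 110 without dim probes (59 higher, 51 lower) and 77 with an offset of 100 (40 higher, 37 lower). With trended robust variance 95 were higher and 130 lower, so the higher share was 42.2% against 49.4%. Leaving out 1 heart gave 271 to 964 probes (150 to 386 higher, 119 to 578 lower) and 1944 to 3833 at an unadjusted p of 0.05, the highest without Ddc WT replicate 1. Without dim probes 796 passed that p. Without both Ddc MATΔ hearts with high Afp, left out after seeing the data, 0 passed the adjusted threshold (limma, 2774 at an unadjusted p of 0.05) and 570 met the looser criterion (316 higher, 254 lower). Beyond the fewer probes or hearts, the cause was not tested. The 3 Ddc probes kept their direction in every alternative. Of the list medians 11, and of the medians by distance from Ddc 3, moved by more than the spread between hearts in at least 1 alternative. The replicate block gave 0 calls and 359 probes at the looser criterion. Same-numbered hearts correlated at -0.28, 0.07 and -0.10 after centring on their group, and these few values cannot show whether they shared a litter or a slide. Renormalizing the scanner signals with slide as a block was not run, because its columns could not be tied to hearts.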

Other observations

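A list of cholesterol synthesis enzymes was drawn up after Mvd and Sc5d had been seen among the largest higher differences, so its counts are a description. Of 15 measured enzymes 13 were higher in Ddc MATΔ, 4 at an unadjusted limma p of 0.05 and 5 without overlap. These counts include Mvd and Sc5d themselves. Of all 19056 genes 9901 were higher, 2.87% at that p and 2.97% without overlap. The dim Tm7sf2 was lower at that p (-0.51). The median was 0.20, against 0.01 for all genes. Msmo1, a sterol oxidase, read 11.37, 11.20 and 11.34 in Ddc WT and 11.62, 11.64, 11.91 and 11.71 in Ddc MATΔ, and Cyp51, lanosterol demethylase, read 9.10, 9.29 and 8.97 against 9.34, 9.74, 9.74 and 9.43. The list mean was highest, at 0.26, in Ddc MATΔ replicate 3, the heart with the most liver signal, and was 0.02, -0.02 and 0.08 in the other Ddc MATΔ hearts against -0.20 to -0.05 in Ddc WT. Without Ddc MATΔ replicates 3 and 4 the median was 0.18.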
